A study of Mus musculus with 8 samples.

Results

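Genes that mark reactive astrocytes were followed in mouse brain tissue at day 14 after stroke or sham surgery. The set holds 33 genes of a widely used panel, in 3 groups: 10 pan-reactive genes, 11 A1 genes and 12 A2 genes. A member was any non-control array probe whose RefSeq accession belongs to 1 of these symbols, which gave 45 probes, and all 33 genes had at least 1 of them among 22911 genes with a named probe. The tissue arrays are 4 one-colour Agilent microarrays, 1 per group. The groups were a wild type (WT) mouse sham group, a DEREG sham group, a WT ischemia group and a DEREG ischemia group, with RNA from 1 brain slice level on the side of the lesion. DEREG mice express the diphtheria toxin receptor from Foxp3 regulatory sequence, so that toxin can remove regulatory T cells (Treg). The labels used here do not say whether toxin was given to any group, how the artery was occluded, how old the mice were or whether RNA was pooled. A further 4 arrays of the series hold CD4 T cells, Treg and nonTreg, from the ischemic brain and from intact spleen, and are used at the end.

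Astrocytes respond to injury by enlarging their filament network and by secreting protease inhibitors, complement regulators and cytokines. Gfap and Vim, the filament genes, are the classical markers of this state. The pan group holds genes induced by several kinds of injury, the A1 group genes first described after systemic endotoxin, many of them interferon targets, and the A2 group genes first described after ischemia. The names sort genes, not cells: microglia, macrophages, endothelial cells and lymphocytes also express several of them, and in bulk tissue more cells of a type and more RNA per cell cannot be told apart.

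Each group has 1 array, so no difference below has a replicate check and none was tested. Values are processed signals, in linear intensity units. Differences are on the log2 scale after each array was set to its 75th percentile, which lay between 411 and 439 units on the tissue arrays. A signal counts as measured where the scanner software called it well above background, which held for 62.0% to 65.1% of probes. Where only 1 of the compared arrays passed, the difference is a lower bound, written "at least", against the higher of the dim signal and the lowest signal of any probe well above background on that array. Such a bound holds for this background method: normexp correction, which adds an offset of 50, gave smaller values for all 7 members bounded in WT, from 0.36 (B3gnt5) to 2.86 (Tgm1). The software's own error of a spot was 10.01% at the median over the members, or 0.20 for most log2 differences. It was 10% at the lowest, so for most members passing the spot error means passing a nearly fixed cut-off. This error covers the spot only, not the spread between animals, and the number of arrays limits the precision of every value. Signals of different genes come from different probes and cannot be ranked against each other.

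Nearly all of the panel was much higher in the ischemic slice of WT mice than in the WT sham slice. Of 33 members, 30 were at least 2-fold higher, 22 at least 8-fold and 6 at least 32-fold, and none was 2-fold lower. Ischemia moved many other genes: among 16973 genes with a value, 18.8% reached 2-fold upward and 18.4% downward, 37.2% in all. The median difference was 3.87 over the members and -0.14 over all genes compared. By group the medians were 4.40 for the pan genes (10 of 10 at 2-fold), 3.78 for the A1 genes (10 of 11) and 2.48 for the A2 genes (10 of 12). The A2 median rests on 6 lower bounds among 12 values, the pan median on 1 and the A1 median on none, so the order of the 3 medians has no meaning.

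**Figure D1:**
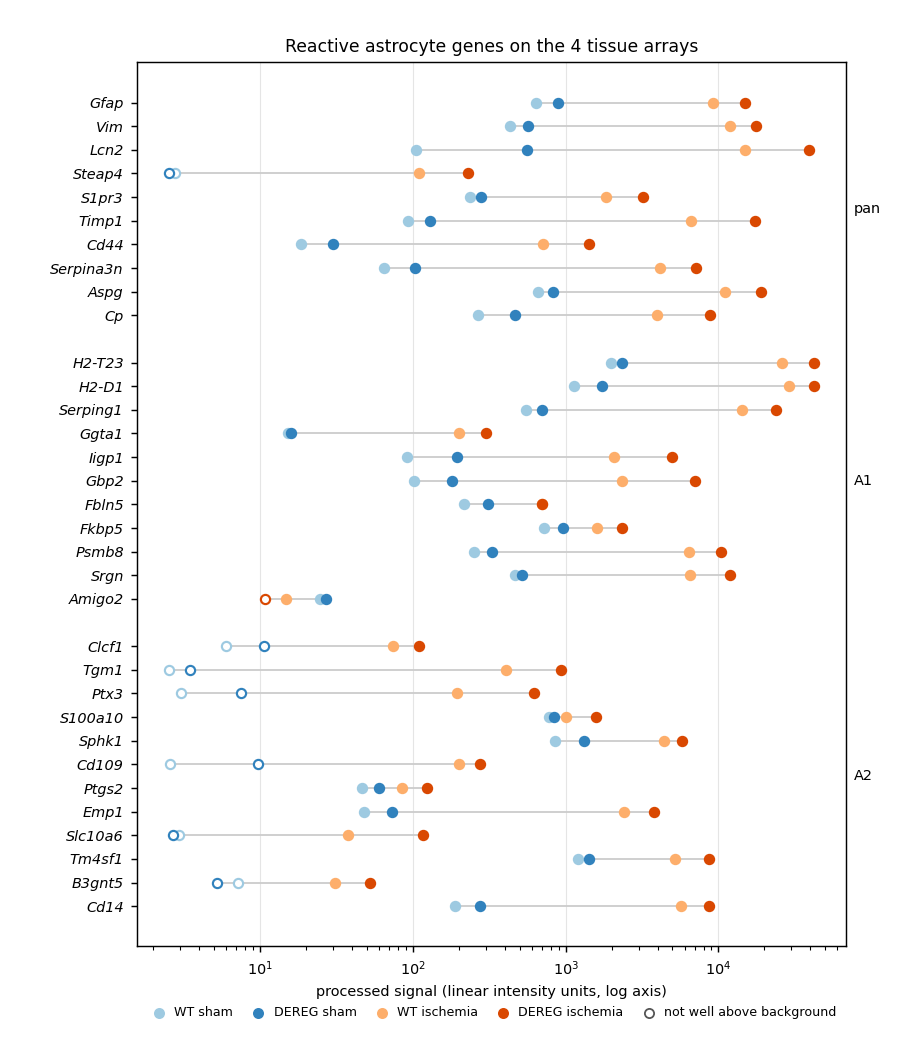
Processed signal (linear intensity units, log axis) of each of the 33 genes on the 4 tissue arrays, 1 point per array, with open points where the signal was not well above background. In 32 of 33 rows both ischemia points lie to the right of both sham points, and Amigo2 runs the other way; rows cannot be compared with each other.

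The filament gene Gfap, the classical astrocyte marker, had sham signals of 635 (WT) and 892 (DEREG) and ischemia signals of 9225 (WT) and 14815 (DEREG). Both ischemia arrays lay far above both sham arrays, and WT ischemia was 14.2-fold above WT sham, a difference of 3.83 with a spot error of 0.20. A further Gfap probe, for another transcript accession, gave 4.39. Vim, encoding vimentin, read 435, 563, 11971 and 17558 in the same order of arrays, which is 27.0-fold higher in WT ischemia than in WT sham.

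Of the secreted pan genes, 3 had larger differences than both filament genes, and Cp did not. Lcn2, encoding lipocalin-2, which binds bacterial siderophores, read 105 (WT) and 559 (DEREG) after sham surgery and 14824 (WT) and 39208 (DEREG) after ischemia. It was 138-fold higher in WT ischemia than in WT sham, rank 27 of 16973 genes and the largest difference among members measured on both arrays. The sham arrays themselves were apart for this gene, as taken up below. Timp1, an inhibitor of matrix metalloproteinases, read 92.5 (WT) and 129 (DEREG) after sham surgery and 6582 (WT) and 17339 (DEREG) after ischemia, and was 69.7-fold higher in WT ischemia. Serpina3n, a serine protease inhibitor, read 65.1, 103, 4137 and 7159 on these arrays and was 62.2-fold higher. Cp, encoding the copper-carrying ferroxidase ceruloplasmin, read 266, 464, 3980 and 8747 and was 14.7-fold higher. For each of these secreted genes both ischemia signals lay far above both sham signals.

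The other pan genes belong to the cell surface and to metabolism. Cd44, the hyaluronan receptor, read 18.6 (WT) and 30.2 (DEREG) after sham surgery and 712 (WT) and 1428 (DEREG) after ischemia, 37.5-fold higher in WT ischemia than in WT sham (5.23 on the log2 scale). Its sham signals are dim, and its WT value ran from 3.28 with normexp background correction to 6.26 with the median over its probes. S1pr3, a receptor for sphingosine 1-phosphate, read 236, 279, 1844 and 3232, and Aspg, an asparaginase, 654, 822, 11029 and 19048. They were 7.66-fold and 16.5-fold higher in WT ischemia. Steap4, a metalloreductase, was not well above background on either sham array and read 110 in WT ischemia and 229 in DEREG ischemia, at least 9.17-fold higher in WT ischemia. All 10 pan genes thus had both ischemia values above both sham values.

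Of the 11 A1 genes, 10 passed 2-fold in WT ischemia, with Serping1 highest. H2-D1 and H2-T23, a classical and a nonclassical MHC class I gene, were 4.64 and 3.68 higher on the log2 scale in WT ischemia. There Psmb8, an immunoproteasome subunit, was 25.2-fold higher, and Gbp2 and Iigp1, interferon-induced GTPases, 22.5-fold and 22.3-fold. MHC class I genes resemble each other, and cross-hybridisation of these 2 probes was not tested. Gbp2 read 102 (WT) and 181 (DEREG) after sham surgery and 2338 (WT) and 6991 (DEREG) after ischemia. Serping1, the inhibitor of complement C1, read 549, 696, 14310 and 23840 in this order and was 25.5-fold higher. Ggta1, a galactosyltransferase, and Srgn, the proteoglycan of secretory granules, were 3.70 and 3.78 higher on the log2 scale, and the dim Ggta1 came to 1.76 with normexp.

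The remaining A1 genes stood lower. Fbln5, an elastic fibre protein, was 3.21-fold higher in WT ischemia than in WT sham, and Fkbp5, a co-chaperone of the glucocorticoid receptor, 2.18-fold. Amigo2, an adhesion molecule, was the only member with a lower signal after ischemia: 24.8 (WT) and 26.9 (DEREG) after sham surgery, then 14.7 (WT) and 10.8 (DEREG, not well above background). These signals are close to the background limit, and the WT difference was -0.78 with a spot error of 0.38.

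Of the A2 genes, 6 were above background only after ischemia. Tgm1, a transglutaminase, was at 2.53 (WT) and 3.50 (DEREG) after sham surgery, neither well above background, and at 406 (WT) and 926 (DEREG) after ischemia. It was at least 33.7-fold higher in WT ischemia than in WT sham. Cd109, a membrane-anchored partner of the TGF-beta receptor, was at least 16.6-fold higher. Ptx3, a long pentraxin of innate defence, read 3.03 (WT) and 7.45 (DEREG) after sham surgery, neither well above background, then 194 (WT) and 620 (DEREG), and was at least 16.1-fold higher. Clcf1, a cytokine of the IL-6 family, Slc10a6, a transporter of sulfated steroids, and B3gnt5, a glycolipid enzyme, were at least 6.12-fold, 3.13-fold and 2.59-fold higher.

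The A2 genes measured on every array spread widely. Emp1, a small membrane protein, read 47.8 (WT) and 73.1 (DEREG) after sham surgery and 2392 (WT) and 3801 (DEREG) after ischemia and was 49.0-fold higher in WT ischemia. Cd14, the lipopolysaccharide co-receptor, read 190, 277, 5699 and 8735 and was 29.4-fold higher, with 4.89 for its further probe against 4.88. Sphk1, the kinase that makes sphingosine 1-phosphate, was 5.11-fold higher and Tm4sf1, a tetraspan membrane protein, 4.25-fold, with Tm4sf1 at 1198, 1419, 5201 and 8678 on the 4 arrays. Ptgs2, encoding cyclooxygenase-2, was at 1.78-fold. S100a10, the partner of annexin A2, read 777, 840, 1001 and 1580 and was at 1.26-fold, the smallest difference of the panel.

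**Figure D2:**
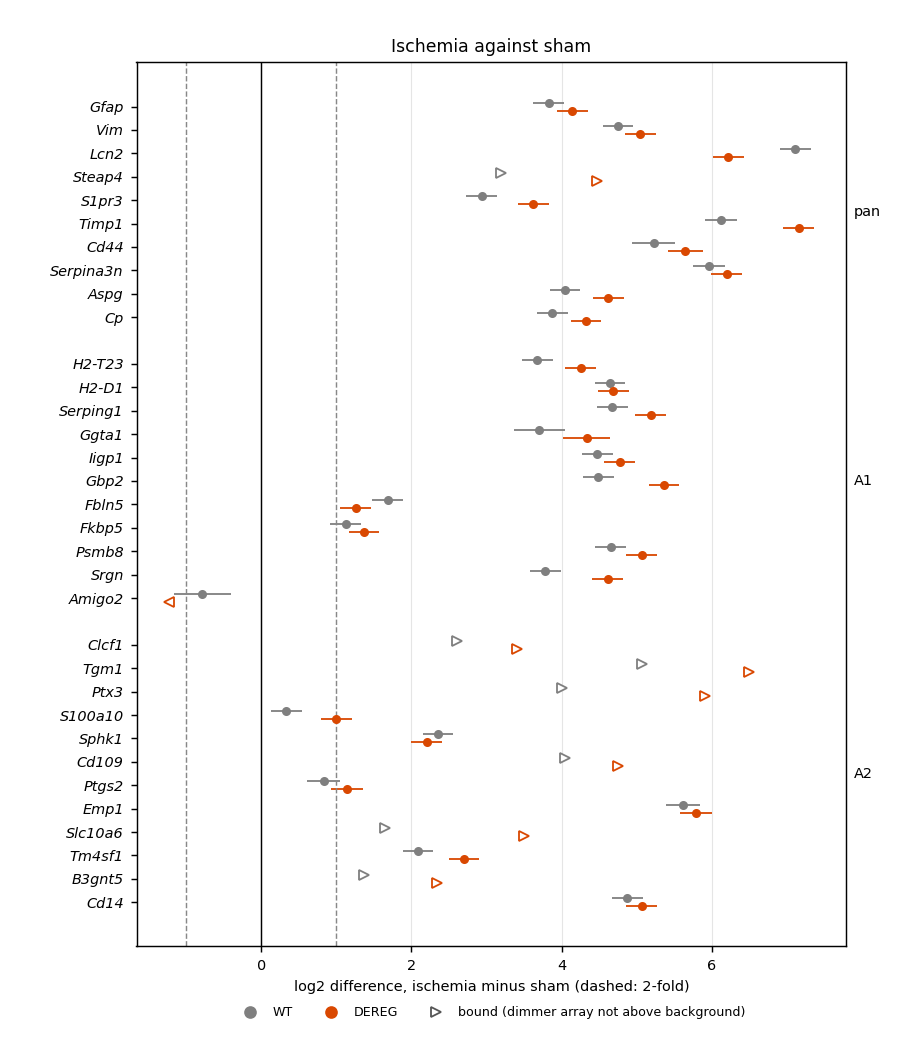
Log2 difference of ischemia against sham for each gene in WT (grey) and in DEREG (orange), with the scanner software's spot error as bars and open triangles for bounds. Amigo2 is the only gene below 0, and S100a10 in WT lies nearest to 0.

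The start regions of the members were searched for known DNA elements. RefSeq promoter windows of mouse assembly GRCm38.p6 were found for 27 of 33 members, in 36 windows, and 250 bases before each annotated start were read on both strands. The elements were the STAT site TTCNNNGAA, the interferon-stimulated response element (GAAA, any 2 bases, GAAA) and the AP-1 site TGANTCA. The STAT site was in 6 of 36 windows, from 5 genes (Steap4, Psmb8, Emp1, Tgm1 and Sphk1), and in 7.02% of all 32851 windows. The interferon element was in 5 windows (Gbp2, H2-T23, Srgn, Tgm1 and Tm4sf1) and in 2.98% of all, and the AP-1 site in 5 windows, from 4 genes (Cp, Gbp2, Emp1 and Sphk1), and in 6.75% of all. Windows of 1 gene can overlap, and a match of letters says nothing about binding. The stretches of 6 members that differed at 2-fold or more are shown, ending at the base before the start, with every match in capitals. Gbp2 is on the plus strand (chr3:142620533-142620662), Steap4 on plus (chr5:7960342-7960471), Psmb8 on plus (chr17:34198085-34198194), H2-T23 on minus (chr17:36032702-36032831), Emp1 on plus (chr6:135362781-135362930) and Tgm1 on minus (chr14:55713493-55713742).
Gbp2: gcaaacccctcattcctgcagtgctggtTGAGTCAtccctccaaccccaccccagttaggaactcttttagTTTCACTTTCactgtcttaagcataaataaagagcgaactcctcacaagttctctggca
Steap4: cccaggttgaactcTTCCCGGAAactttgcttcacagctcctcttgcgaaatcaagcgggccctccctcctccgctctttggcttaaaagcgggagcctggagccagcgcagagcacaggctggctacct
Psmb8: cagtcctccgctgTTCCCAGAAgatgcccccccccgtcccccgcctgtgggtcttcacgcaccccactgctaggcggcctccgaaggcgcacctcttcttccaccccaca
H2-T23: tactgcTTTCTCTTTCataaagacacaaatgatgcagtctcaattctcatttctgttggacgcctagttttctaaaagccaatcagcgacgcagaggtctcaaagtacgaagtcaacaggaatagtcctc
Emp1: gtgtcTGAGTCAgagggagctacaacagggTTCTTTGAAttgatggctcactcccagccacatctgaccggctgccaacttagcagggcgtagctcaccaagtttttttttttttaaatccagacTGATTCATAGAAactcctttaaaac
Tgm1: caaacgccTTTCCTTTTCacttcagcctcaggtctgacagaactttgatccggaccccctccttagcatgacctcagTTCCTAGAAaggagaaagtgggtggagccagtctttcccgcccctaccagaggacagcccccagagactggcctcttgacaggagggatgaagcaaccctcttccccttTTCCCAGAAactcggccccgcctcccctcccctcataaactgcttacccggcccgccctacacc
In Gbp2 the AP-1 match comes first and the interferon element second. In Emp1 the last STAT match overlaps the last AP-1 match, and in Tgm1 the interferon element is the first of 3 matches.

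DEREG tissue showed the same picture against its own sham array, which the WT comparison does not share. Of 33 members, 31 were at least 2-fold higher, where 22.4% of 17161 genes were, and 1 member was lower, Amigo2 (at least 2.35-fold). S100a10 lay just below 2-fold, and quantile normalization or the percentile of detected probes puts 32 members past it. The median difference was 4.61, and the largest were Timp1 (143-fold, rank 51), at least 89.8-fold for Tgm1, Lcn2 (74.5-fold), Serpina3n (73.5-fold) and at least 60.1-fold for Ptx3. Gbp2 was 41.1-fold and Serping1 36.4-fold higher. Gfap was 17.6-fold and Vim 33.1-fold higher, and Fbln5 (2.39-fold) and Sphk1 (4.60-fold) stood lower than in WT. The further Gfap probe gave 4.35 on the log2 scale.

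The next comparison asked whether the panel differed between genotypes after stroke. It was higher in DEREG ischemia than in WT ischemia for 32 of 33 members, where 58.7% of 16861 genes were. The median difference was 0.76, or 1.69-fold, against 0.08 over all genes compared. At 2-fold 10 members were higher and none lower, where 2.35% of all genes were higher and 5.35% lower, 7.7% in all. With normexp 7 members were 2-fold higher, and 9 with quantile normalization or the percentile of detected probes. The difference exceeded its spot error for 31 of 32 members measured on both arrays, but the spread between animals is unknown here. Pan genes had a median of 0.93 (5 of 10 at 2-fold), A1 genes 0.71 (2 of 11) and A2 genes 0.69 (3 of 12). The ranges of the 3 groups overlapped.

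Ptx3 had the largest difference between the ischemia arrays, 3.25-fold, followed by Slc10a6 (3.14-fold), which read 37.6 in WT and 116 in DEREG and was not well above background after sham surgery (2.94 and 2.70). Gbp2 was 3.04-fold higher in DEREG, Lcn2 2.69-fold and Timp1 2.68-fold. Iigp1 (2.43-fold), Tgm1 (2.32-fold), Cp (2.23-fold), Steap4 (2.11-fold) and Cd44 (2.04-fold) completed those past 2-fold. The call for Cp depends on the probe: its other 3 probes gave 0.50, 0.99 and 1.11, against 1.16 for the probe used. Under other processing the log2 difference fell as low as 0.76 for Slc10a6, 0.81 for Cp, 0.83 for Steap4 and 0.97 for Cd44. Gfap was 1.63-fold, Vim 1.49-fold, Serpina3n 1.76-fold, Serping1 1.69-fold, Emp1 1.61-fold and Cd14 1.56-fold higher, all short of 2-fold. Fbln5, at 0.02 on the log2 scale, differed by less than its spot error, and its sign changed with the scaling of the arrays. Amigo2 was at least 1.34-fold lower.

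The sham arrays also differed, in the same direction and by less for most members. Of 26 members compared, 25 were higher in DEREG sham than in WT sham, where 48.1% of 16316 genes were. The median was 0.36, against -0.01 over all genes compared. At 2-fold only Lcn2 was called, where 0.588% of genes were higher and 0.447% lower, 1.04% in all. The difference passed its spot error for 19 of 26 members, and 2 spot errors for 10. Lcn2 was 4.99-fold higher, rank 5 of all genes, and its further probe gave at least 1.85 on the log2 scale. Iigp1 read 91.7 in WT sham and 194 in DEREG sham, 1.98-fold higher, against 2086 and 4980 after ischemia. Gbp2 (1.66-fold), Cp (1.63-fold) and Cd44 (1.52-fold) followed. On the log2 scale the other Cp probes gave 0.03, 0.61 and at least 0.13, against 0.71 for the probe used. Cd44 ran from 0.09 to 0.61 under other processing, and its other probes were not above background on either sham array. S100a10 and Amigo2 lay within 0.05 of 0, where another scaling changes their sign. Neutrophil genes were also higher in DEREG sham: all 5 compared lay above 0 (median 0.96), S100a8 at 1.90, S100a9 at 1.43, Retnlg at least 0.96, Mpo at 0.49 and Camp at 0.22. Glucocorticoid target genes other than Fkbp5 had a median of 0.43 there, with 6 of 7 above 0, Sgk1 at 0.85 and Zbtb16 at 0.72. The part of either list in the sham values of the members was not tested.

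**Figure D3:**
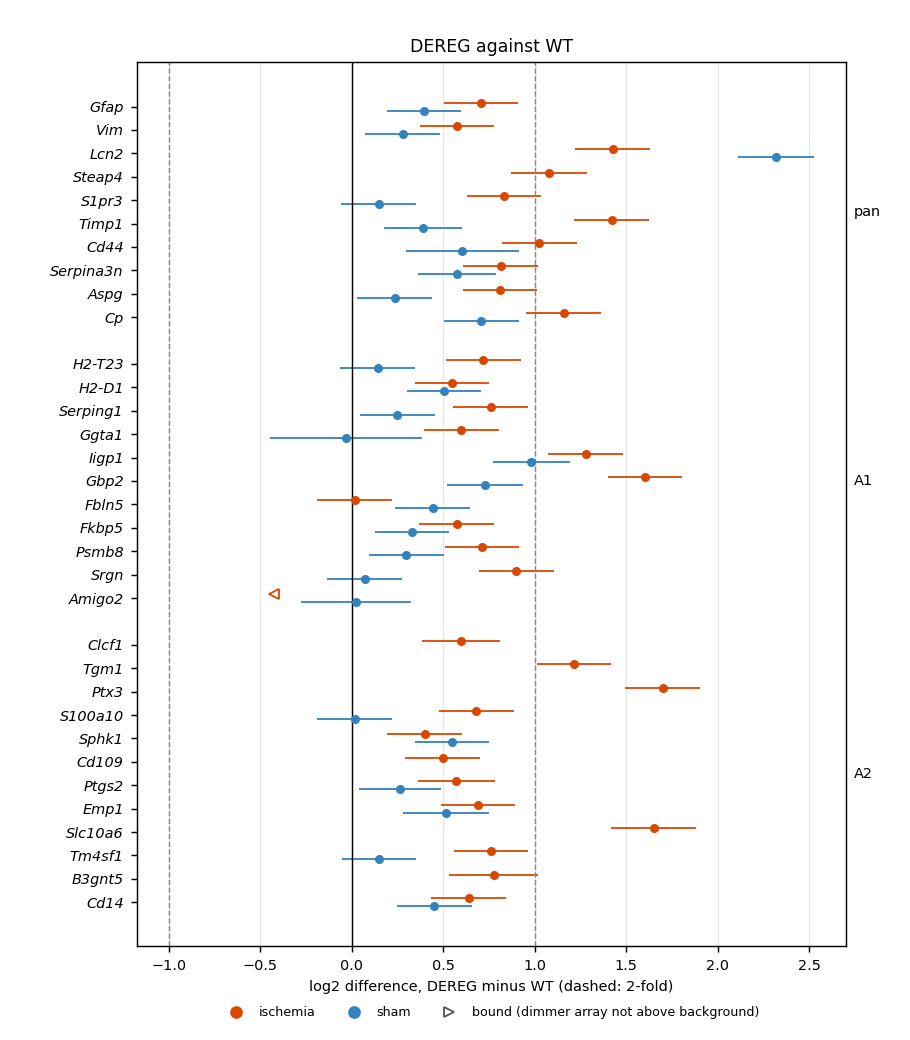
Log2 difference of DEREG against WT after ischemia (orange) and after sham surgery (blue) for each gene, with the scanner software's spot error as bars. Most points of both colours lie above 0, Lcn2 after sham surgery lies farthest right, and genes with no blue point were not above background on either sham array.

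Whether the stroke difference itself was larger in DEREG was read from the 25 members above background on all 4 arrays. The DEREG difference minus the WT difference was above 0 for 22 of them, and for 55.9% of 15120 genes. The median was 0.41 over the members, against 0.06 over those genes. Timp1, at 1.03, was the only member at 2-fold, a size reached upward by 0.906% and downward by 5.21% of genes. Gbp2 (0.87), Srgn (0.83), S1pr3 (0.68) and S100a10 (0.66) followed. Gfap was at 0.31 by the probe used, but its further probe had no larger stroke difference in DEREG (4.35) than in WT (4.39). Lcn2 was at -0.89, with sham signals of 105 in WT and 559 in DEREG, and Fbln5 (-0.43) and Sphk1 (-0.15) were also negative. Only 7 of the 25 values exceeded 2 spot errors, and the difference between genotypes could not be tested with 1 array each. On scaled signals, 24 of these 25 members ran in the order WT sham, DEREG sham, WT ischemia, DEREG ischemia, an order found in 18.4% of 15120 genes. All 25 had both ischemia values above both sham values, and among the 5711 genes that did, 48.7% ran in this order. The exception was Ggta1, whose sham values (15.2 and 15.9) differed by less than their spot error.

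All 16 homeostatic astrocyte genes were above background on all 4 arrays, and their median difference was -0.12 in WT and -0.09 in DEREG after ischemia, and -0.06 between the ischemia arrays. In WT 2 of 16 were at least 2-fold higher, the water channel gene Aqp4 (1.74) and the gap junction gene Gja1 (1.30), and none was lower. The glutamate transporter gene Slc1a2 was at -0.35 and Slc1a3 at 0.72. Slc7a10, a neutral amino acid transporter gene, was at least 2-fold lower in DEREG after ischemia (-1.14). Of the 16, 7 lay above 0 in WT and 9 below.

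Other genes linked to reactive astrocytes were less uniform than the panel. Of 14 of them, 7 were at least 2-fold higher in WT ischemia (median 1.12), with the galectin gene Lgals3 at 10.06 and complement C3 at 7.81, while S100b (-0.01), Synm (-0.22) and Ncan (-0.79) lay below 0. Between the sham arrays this list had a median of -0.09, with 8 of 13 below 0. Of the 4 remaining genes of the published panel, 3 had a named probe, and all 3 were past 2-fold in WT ischemia: the chemokine gene Cxcl10 (6.90), Osmr, the oncostatin M receptor (3.92), and the heat shock gene Hspb1 (1.96). Of the 5 genes of factors described as inducers of the A1 state, all were at 2-fold in both genotypes, with complement C1qa, C1qb and C1qc at 4.70 to 4.89 in WT, Tnf at 2.70 and Il1a at least 1.79. Between the ischemia arrays these 5 were 0.33 to 0.60 higher in DEREG, none at 2-fold. In the IL-6 and STAT3 list 8 of the 13 with a value passed 2-fold upward in WT ischemia and none downward (10 above 0, 3 below), among them Osm (at least 5.79), Socs3, a feedback inhibitor of STAT3 (4.15), and Stat3 itself (2.02). All 19 interferon and antigen presentation genes were past 2-fold in WT and in DEREG, with medians of 4.17 and 4.63. In DEREG ischemia against WT ischemia all 19 were above 0 and 5 at 2-fold (median 0.86), led by Gbp3 (1.38), Igtp (1.19) and Irf1 (1.18).

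The lists around single members are short, and their counts at 2-fold are read against the 18.8% of all genes 2-fold higher in WT ischemia. Of 7 genes that make, sense or clear sphingosine 1-phosphate beside Sphk1 and S1pr3, 2 passed 2-fold in WT ischemia (5 lay above 0), the receptor gene S1pr2 (at least 3.32) and the lyase gene Sgpl1 (2.71). In the lipopolysaccharide list around Cd14, 4 of 5 passed 2-fold upward in WT, with Lbp at 7.09 and Tlr2 at 5.91, and Ly96 was 2-fold lower (-1.05). Of the hyaluronan and Cd44 ligand genes, 5 had a value in WT, and 3 were at least 2-fold higher and 1 lower. Spp1, encoding osteopontin, was at 8.10, and the hyaluronan synthase gene Has2 at least 1.07. Has1, another such gene, was at -2.25, with a dim signal of 22.3 in WT ischemia. Beside Fkbp5, 2 of 7 other glucocorticoid target genes were at 2-fold in WT ischemia, Sgk1 (1.82) and Mt2 (1.60). Beside Ptgs2, 2 of 6 prostaglandin genes were, Pla2g4a (2.84) and Ptgs1 (1.73). A count of 2 in a list this short is near that background.

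Markers of several other cell types also differed on the same arrays. In WT ischemia against WT sham, microglia genes had a median of 2.75 (8 of 10 at 2-fold), macrophage and monocyte genes 4.64 (9 of 9), fibroblast and meningeal genes 5.08 (8 of 8) and neutrophil genes 3.37 (5 of 6). All 9 neuron genes and all 6 striatal neuron genes were lower, with medians of -1.87 and -3.20. Oligodendrocyte (-0.16), endothelial (0.48) and pericyte (0.56) genes were nearer to 0. Ependymal and choroid plexus genes had a median of 2.12, with Ttr at 8.15, and Ttr read 91.7, 360, 26647 and 491 on the 4 arrays, high in WT ischemia alone. Their part in the differences of the panel was not tested.

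Between DEREG and WT ischemia the same lists were also apart. T cell genes had a median of 2.77 (6 of 7 at 2-fold), with Cd3g at 3.04 and Cd8a at 2.90, and neutrophil genes 1.72 (4 of 6). Microglia genes (0.24), macrophage genes (0.37) and fibroblast genes (0.32) had smaller medians than the members (0.76). Neuron genes were lower in DEREG (median -1.09, 5 of 9 at 2-fold), as were striatal neuron genes (-0.99, 3 of 6). Ependymal and choroid plexus genes had a median of -0.91, with 5 of 7 below 0 and 2 above. Of these, 3 were at least 2-fold lower, with Ttr at -5.74. Neuron signals were summed after each array was divided by its scaling percentile, so the sums are not in intensity units. The sums were 409 (WT) and 383 (DEREG) after sham surgery and 111 (WT) and 50.1 (DEREG) after ischemia. The slices thus differed in neuronal RNA along with the panel. Its part in the genotype difference was not tested.

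**Figure D4:**
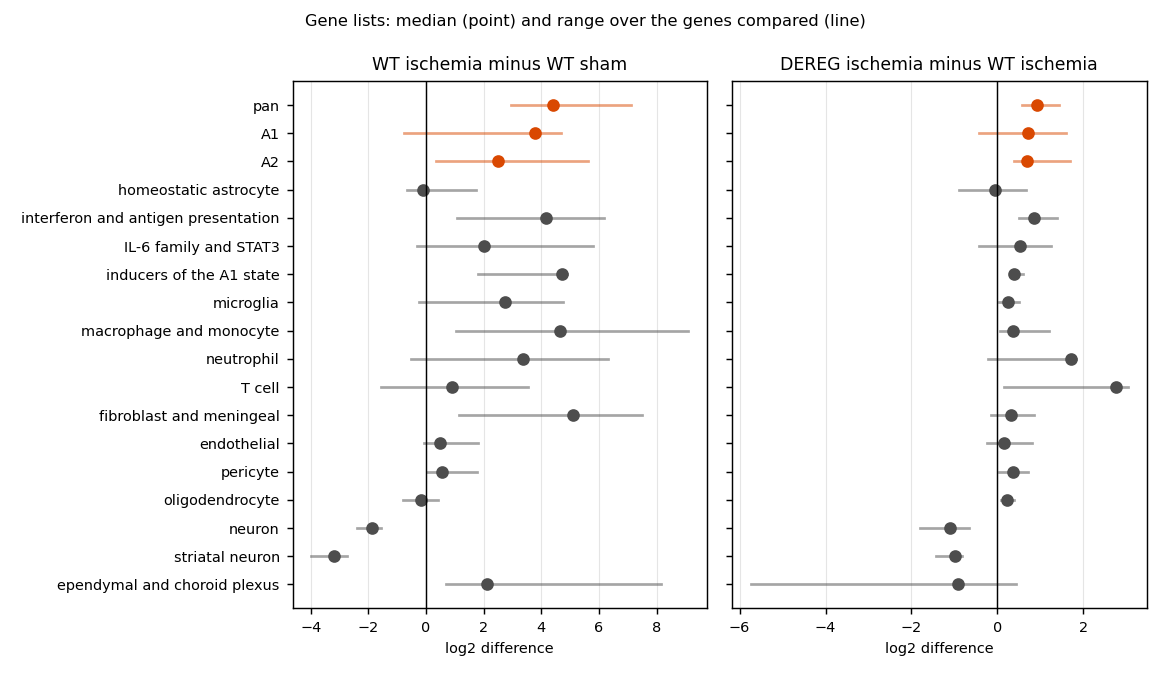
Median (point) and range (line) of the log2 differences over the genes compared in each list, for WT ischemia minus WT sham on the left and DEREG ischemia minus WT ischemia on the right. The medians of the pan, A1 and A2 groups (orange) lie above 0 in both panels, the A1 range reaches below 0 through Amigo2, and the medians of homeostatic astrocyte genes lie near 0 and those of neuron genes below it.

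On all 4 T cell arrays 15 of 33 members had a probe well above background, including 8 of 11 A1 genes, H2-D1, H2-T23, Psmb8, Gbp2, Iigp1, Srgn, Ggta1 and Fkbp5. Over all 22911 named genes this share was 49.4%, against 45.5% of the members. The other members found on all 4 were Vim, Timp1, Cd44, Clcf1, S100a10, Emp1 and B3gnt5. On none of the 4 were Gfap, Steap4, Serpina3n, Aspg, Tgm1, Ptx3, Cd109 and Slc10a6, that is 8 members, or 24.2% against 37.5% of all named genes.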

How the data were processed

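Scanner files of 8 one-colour Agilent 60K mouse arrays (4 of brain tissue, 4 of CD4 T cells, 1 array per group) were read. Per the submitters' processing notes, the software behind the deposited intensity values was Feature Extraction, version 10.7.1.1, of Agilent. The deposited series table holds a signal per probe that is, for 99.89% to 99.97% of probes on an array, a constant times the scanner value within 0.1%; its column medians were 0.068 to 0.123, and what the authors scaled to is not given in the sources used here. Control spots and outlier spots were left out, repeat spots were averaged, each array was divided by its 75th percentile, and log2 was taken. Of 56605 probes, 32994 were named through RefSeq accessions, 23611 had no name and 0 had several. A gene's probe was the one with the highest mean scaled value over the tissue arrays. A gene counted as different at 2-fold. With 1 array per group no test was run. On simulated arrays of 15808 genes, 98.0% of 3-fold and 99.0% of 8-fold changes were recovered and 0 unchanged genes were called. The simulated noise was only the spread between repeat spots of the WT sham array (median SD 0.042 on the log2 scale). It held no spread between animals, so it cannot show how many 2-fold calls between groups are false. All 8 arrays share 1 slide, with the T cell arrays in row 1 and the tissue arrays in row 2. No spot of a named probe was saturated. The members and all gene and marker lists were chosen with earlier results of these data known, and every member is named in the report. Alternatives were normexp background correction (limma 3.58.1, offset 50, on median signals), quantile normalization, other scalings, other filters and probe rules, the deposited series table and a 1.5-fold threshold. Python 3.11.15 and R 4.3.3 were used.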

Additional observations from a re-analysis of the deposited data

Results flagged for a closer look

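Of the 33 members, 9 were above background on an array of CD4 T cells from the ischemic brain and not on the array of the same cell class from intact spleen, 27.3% of the members against 9.66% of all 22911 named genes. These arrays take no part in the tissue comparisons. Cd14, a gene of myeloid cells, read 1503 in brain Treg and 678 in brain nonTreg. Tm4sf1 read 453 in brain Treg and 678 in brain nonTreg, Lcn2 196 and 250, and Fbln5 67.7 and 122. Serping1 read 50.1 and 88.1, Ptgs2 73.9 and 58, S1pr3 14.8 and 23, and Sphk1 14 and 25.6, in the same order. Cp read 175 in brain Treg and 161 in brain nonTreg, both above background. It met this description in Treg only, because another of its probes was above background in spleen nonTreg. Which cells the signals came from was not tested, and each class has 1 array per source.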

How the results depend on the processing

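No called member value changed sign under any alternative. The median over the members ranged from 3.28 to 4.18 for ischemia in WT, 4.06 to 4.69 in DEREG, 0.66 to 0.83 between the ischemia arrays and 0.24 to 0.37 between the sham arrays. No paired analysis was possible because the labels give no replicate numbers and each group has 1 array; for the same reason no replicate could be left out. Normexp moved 63 of 165 values (members and medians of the 3 groups) by more than the median spot error of the comparison. With it the member median was 3.28 in WT and 4.06 in DEREG, no member (0) was lower in DEREG, genes at 2-fold numbered 576 between the ischemia arrays (1298 as reported), 13 between the sham arrays (169) and 493 for the difference of the stroke differences (925), and 2 members were higher there. With quantile normalization 1 member was lower in WT ischemia, and in the difference of the stroke differences 0 were higher (Timp1 at 0.89) and 1 lower. With the percentile taken over detected probes 0 were higher there (Timp1 at 0.99). With only measured genes 0 members were lower in DEREG and 62 genes were called between the sham arrays. With no filter on dim probes 2180, 934 and 2840 genes were called between the ischemia arrays, between the sham arrays and in the difference of the stroke differences, with 3 members higher between the sham arrays and, in the last, 4 higher and 1 lower. Taking each gene as the median of its probes, the WT median was 4.18, 333 genes were called between the sham arrays and 1 member was lower in the difference of the stroke differences. At 1.5-fold 9723 genes were called in WT (6306 at 2-fold), 3303 between the ischemia arrays, 625 between the sham arrays and 2710 in the difference of the stroke differences; 1 member was lower in WT, 25 were higher between the ischemia arrays, 5 between the sham arrays, and in the last 7 were higher and 1 lower. Scaling to the median shifted the median of all genes by -0.16 in WT and moved the share of higher calls in the difference of the stroke differences from 14.8% to 26.5%; leaving out the filter on dim probes moved it to 38.1%. Between the sham arrays that share went from 56.8% to 84.6% with normexp and 71.0% with only measured genes, and to 49.1% with quantile normalization, a majority of lower calls. Beyond the construction of each alternative, the cause was not tested. Signal over background limits Steap4, Clcf1, Tgm1, Ptx3, Cd109, Slc10a6 and B3gnt5 to lower bounds after stroke.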
